A study of Mus musculus with 16 samples.

Results

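Transcripts of the aminoacyl-tRNA synthetases were followed from DN3 to ISP8 thymocytes, in mice without PKBα (Akt1) and in wild-type littermates. The members are the genes whose single annotated symbol follows the nomenclature of this enzyme family, each taken at its brightest probe set on average (mean log2 over all arrays). They number 35 of 18194 genes with a single symbol (72 of 45101 probe sets), with 19 for cytosolic enzymes and 16, whose symbols end in 2, for mitochondrial enzymes. The groups were *PKBα*-/- ISP8, wild-type (*PKBα*+/+) ISP8, *PKBα*-/- DN3 and wild-type DN3 cells, with 4 mice in each. Both subsets came from the same 8 mice, so that 16 arrays were available. All mice were of a C57Bl/6 backcross and formed 4 littermate pairs, of which pair 1 was female and 3 weeks old, pair 2 male and 3 weeks old, pair 3 male and 2 weeks old and pair 4 female and 5 weeks old. The *PKBα*-/- animals lack the kinase in every tissue, thymic stroma included. DN3 cells were sorted by CD25, CD44 and lineage markers and ISP8 cells by CD3, CD4 and CD8, so that the sort differed between the subsets, and between 7000 and 25000 cells were taken with equal numbers within a pair.

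Aminoacyl-tRNA synthetases join an amino acid to its tRNA and so supply every round of protein synthesis. Most amino acids have a pair of enzymes, one for cytosolic translation and another, also encoded in the nucleus, for translation of the few proteins made inside mitochondria. *Gars* and *Kars* serve both compartments from a single gene, and *Eprs* encodes an enzyme that charges both glutamate and proline. Several cytosolic synthetases form the multisynthetase complex together with 3 scaffold proteins. Many cytosolic synthetase genes are known targets of ATF4, the transcription factor of the amino acid response. DN3 cells are the precursors in which the pre-TCR is tested, and ISP8 cells are the dividing CD8 single positive intermediates that come after them.

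The values are GC-RMA estimates on a linear scale, taken as log2 for all tests, and differences are given on the log2 scale. Median values per array were 55.1 to 60.4 in ISP8 and 58.5 to 70.5 in DN3 cells, and the number of arrays limits the precision. *Akt1*, the targeted gene, read 4.87 to 6.81 in *PKBα*-/- ISP8 cells against 1628 to 2211 in wild-type ISP8 cells. In DN3 cells it read 2.01 to 27.3 in *PKBα*-/- mice against 1198 to 2007 in wild-type mice. *Il2ra*, which encodes CD25, changed by -5.41 and *Cd8a* by 4.88 between ISP8 and DN3 cells, both in the direction of the labels. All ISP8 arrays were numbered before all DN3 arrays, so that array order and subset cannot be told apart. Since probe sets differ in how well they bind, levels are compared between samples of the same probe set and not between genes. Changes between the subsets are compared between genes below, and marker values are summed over the genes of a list. All 35 members passed the filter on low values (a value over 20 for either littermate, in 3 pairs or more) and were tested in every comparison.

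ISP8 cells held more transcript of most cytosolic synthetases than DN3 cells of the same mice, while the mitochondrial synthetases went in both directions. Over all 8 mice, 11 of 19 cytosolic members were higher in ISP8 cells and 0 were lower, with a median log2 change of 0.32 (limma with the animal as a block, Benjamini-Hochberg adjusted p under 0.05). Of the 16 mitochondrial members 3 were higher and 6 lower, with a median of -0.10. After quantile normalization the counts were 13 higher and 2 lower of the cytosolic members, and 4 higher and 3 lower of the mitochondrial members. Arrays of sorted cells cannot tell apart more transcript per cell and more cells that hold it. Among all 36835 probe sets tested, 15.6% were higher and 21.9% lower with a median of -0.05, and with 1 probe set per gene 18.3% were higher and 24.1% lower with a median of -0.02. In single mice the median of the cytosolic members lay between 0.11 and 0.50 and that of the mitochondrial members between -0.24 and -0.03, and without replicate 4 the mitochondrial median over all mice was -0.22. Between 12 and 17 of the 19 cytosolic members had a positive difference in a given mouse, against 4 to 7 of the 16 mitochondrial members.

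**Figure D1:**
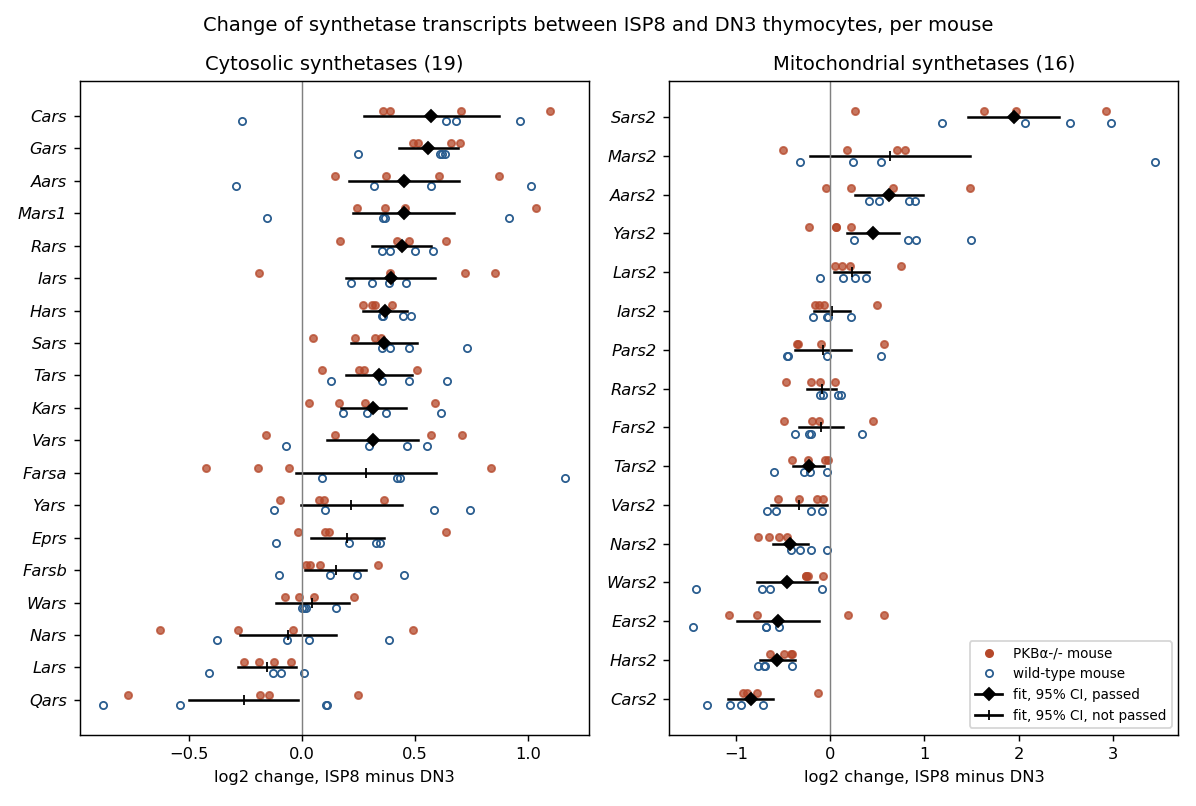
Log2 change between ISP8 and DN3 cells for 19 cytosolic (left) and 16 mitochondrial (right) synthetase genes, on axes of different range. Filled points are *PKBα*-/- mice, open points wild-type mice, and black symbols give the limma estimate over 8 mice with its 95% confidence interval, as a diamond where the gene passed. On the left 11 diamonds lie above 0 and none below, and on the right 3 lie above and 6 below.

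*Gars*, the glycyl-tRNA synthetase, had the smallest p of all members, read from its only probe set. It read 5037, 4826, 4906 and 4561 in *PKBα*-/- ISP8 cells and 4981, 4782, 5106 and 4332 in wild-type ISP8 cells (pairs 1 to 4), against 3103, 3428, 3433 and 2889 in *PKBα*-/- DN3 cells and 3242, 4029, 3287 and 2839 in wild-type DN3 cells. Every ISP8 sample lay above every DN3 sample, and no other cytosolic member was separated in this way. Among all probe sets tested, 5.82% had all 8 ISP8 samples above all 8 DN3 samples, and 8.85% had them all below. The log2 change of *Gars* was 0.56 (standard error 0.061, limma adjusted p = 1.87e-06), a 1.47-fold difference, with the same sign in 8 of 8 mice. The promoter of *Gars* is shown because ISP8 and DN3 samples of this gene do not overlap and because it holds a match to the composite element bound by ATF4 with a C/EBP partner. The sequence runs from 250 bases before to 50 bases after the RefSeq start on the plus strand (chr6:55037751-55038050, GRCm38.p6), and capitals mark the match, which lies on the other strand from position -31 to -23.
Gars: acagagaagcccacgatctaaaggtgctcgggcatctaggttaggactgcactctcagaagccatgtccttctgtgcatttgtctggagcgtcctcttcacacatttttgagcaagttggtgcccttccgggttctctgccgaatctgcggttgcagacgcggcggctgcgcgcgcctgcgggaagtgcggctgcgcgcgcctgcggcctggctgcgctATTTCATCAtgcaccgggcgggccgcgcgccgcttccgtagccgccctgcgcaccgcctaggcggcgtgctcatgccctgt

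*Hars*, the histidyl-tRNA synthetase, read 8949, 11182, 10965 and 10761 in *PKBα*-/- ISP8 cells and 11455, 11460, 11248 and 11052 in wild-type ISP8 cells, against 7413, 9010, 8318 and 8607 in *PKBα*-/- DN3 cells and 8932, 8392, 8046 and 8649 in wild-type DN3 cells. Its ISP8 value exceeded the DN3 value in each mouse, although the lowest ISP8 sample, of *PKBα*-/- pair 1, fell within the DN3 range. The log2 change was 0.37 (standard error 0.046, limma adjusted p = 7.29e-06), and the second probe set of *Hars* changed by 0.52 and passed as well. *Rars*, the arginyl-tRNA synthetase of the multisynthetase complex, read 5386, 5071, 5276 and 4306 in *PKBα*-/- ISP8 cells and 5007, 6027, 5599 and 4470 in wild-type ISP8 cells, against 3461, 3647, 4696 and 3212 in *PKBα*-/- DN3 cells and 3912, 4597, 3746 and 3164 in wild-type DN3 cells. It was higher in ISP8 cells of 8 of 8 mice with a log2 change of 0.44 (standard error 0.061, limma adjusted p = 2.24e-05), and the groups overlapped through the 5-week pair, whose ISP8 values were the lowest.

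The seryl, threonyl and lysyl enzymes were also higher in all 8 mice. *Sars* spanned 2013 to 2361 with a median of 2119 in ISP8 cells, against 1214 to 2037 with a median of 1665 in DN3 cells (log2 change 0.36, limma adjusted p = 0.000525). *Tars* spanned 2894 to 3982 (median 3554) in ISP8 cells against 2001 to 3339 (median 2782) in DN3 cells, a change of 0.34 (adjusted p = 0.000881). *Kars* spanned 5236 to 6521 (median 6114) in ISP8 cells against 4025 to 5342 (median 4993) in DN3 cells, a change of 0.32 (adjusted p = 0.00136). In each of these genes the upper DN3 samples overlapped the lower ISP8 samples. *Mars1*, which charges methionine for both initiation and elongation, spanned 2396 to 3240 (median 2864) in ISP8 cells against 1269 to 2689 (median 2185) in DN3 cells. Its change of 0.45 (adjusted p = 0.00263) was positive in 7 of 8 mice, wild-type pair 2 being the exception with -0.15, and it was 0.27 without replicate 4. *Iars*, the isoleucyl enzyme, spanned 2583 to 3871 (median 3403) in ISP8 cells against 1785 to 3081 (median 2598) in DN3 cells, a change of 0.39 (adjusted p = 0.00284) that was negative in *PKBα*-/- pair 3. The second probe set of *Iars* read 0.16 without passing.

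The remaining cytosolic members that rose were *Cars*, *Aars* and *Vars*, for cysteine, alanine and valine. *Cars* changed by 0.57 (limma adjusted p = 0.00392), *Aars* by 0.45 (adjusted p = 0.00502) and *Vars* by 0.31 (adjusted p = 0.0154). The wild-type mouse of pair 2 had differences of -0.26 for *Cars*, -0.29 for *Aars* and -0.07 for *Vars*, with *Vars* also negative in *PKBα*-/- pair 3 (-0.16). The DN3 sample of that wild-type mouse held the highest *Aars* value (2557) and the highest *Cars* value (507) of all DN3 samples. Without replicate 4, which is pair 4, *Aars* did not pass, with a change of 0.29, and without replicate 1 *Vars* did not pass, with 0.21.

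The other 8 cytosolic members did not pass in the probe set used. *Eprs* read 0.20 (limma adjusted p = 0.0507), *Farsa* and *Farsb*, the subunits of the phenylalanyl enzyme, 0.28 and 0.15, *Yars* 0.22 and *Wars* 0.05. *Lars* read -0.16 (adjusted p = 0.0559), *Nars* -0.06 and *Qars* -0.26 (adjusted p = 0.0895). The 95% intervals ran from -0.02 to 0.59 for *Farsa*, from -0.12 to 0.21 for *Wars* and from -0.50 to -0.02 for *Qars*. By role, 4 of 7 members that belong to the multisynthetase complex were higher (*Iars*, *Kars*, *Mars1* and *Rars*) with a median of 0.32, and 7 of the other 12 with a median of 0.33. By the fold of the catalytic domain, 5 of 9 class I enzymes and 6 of 9 class II enzymes were higher, with medians of 0.31 and 0.34, *Eprs* having a domain of each class. The share of all genes that were higher was 18.3%. Of the scaffold proteins of the complex, *Eef1e1* (AIMP3) was higher by 0.45 (adjusted p = 2.34e-05, 8 of 8 mice) and *Aimp2* by 0.18 (adjusted p = 0.0398, 6 of 8 mice), while *Aimp1* read 0.15 (adjusted p = 0.075).

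**Figure D2:**
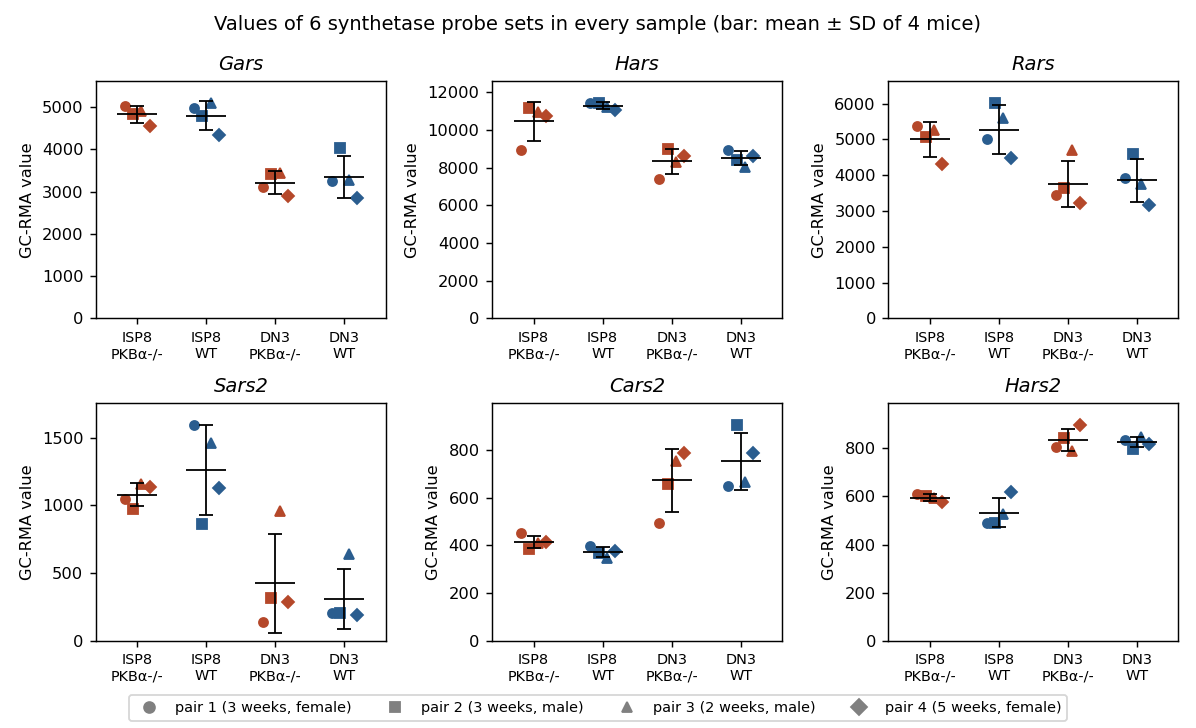
GC-RMA values of 6 synthetase probe sets in every sample, by subset and genotype, with the mean and SD of 4 mice and a symbol for each littermate pair. *Gars* lay at 4332 to 5106 in ISP8 cells, above all DN3 samples, *Cars2* and *Hars2* lay below all DN3 samples, and *Sars2* was high in both DN3 samples of the 2-week pair. Of all probe sets tested, 5.82% lay above all DN3 samples in this way and 8.85% below.

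*Sars2*, the mitochondrial seryl-tRNA synthetase, had the largest change of all 35 members, read from its only probe set. It read 1050, 971, 1158 and 1139 in *PKBα*-/- ISP8 cells and 1598, 861, 1463 and 1129 in wild-type ISP8 cells, against 138, 313, 963 and 289 in *PKBα*-/- DN3 cells and 203, 206, 643 and 193 in wild-type DN3 cells. Both DN3 samples of pair 3, the 2-week males, stood above all other DN3 samples, whose values were 138 to 313, and 1 of them lay above the lowest ISP8 sample. The change was 1.95 (standard error 0.23, limma adjusted p = 3.77e-06), a 3.86-fold difference, positive in 8 of 8 mice, and 2.36 without replicate 3. Age was not replicated apart from the pair, and its part was not tested. *Sars2* starts 147 bases from *Mrps12*, a mitochondrial ribosomal protein gene transcribed in the other direction, and *Mrps12* changed by 0.07 (standard error 0.085, adjusted p = 0.585). The promoter of *Sars2* is given because its 300 bases include the stretch between both start sites (chr7:28741718-28742017, plus strand, GRCm38.p6, RefSeq), and it holds none of the 3 motifs searched below.
Sars2: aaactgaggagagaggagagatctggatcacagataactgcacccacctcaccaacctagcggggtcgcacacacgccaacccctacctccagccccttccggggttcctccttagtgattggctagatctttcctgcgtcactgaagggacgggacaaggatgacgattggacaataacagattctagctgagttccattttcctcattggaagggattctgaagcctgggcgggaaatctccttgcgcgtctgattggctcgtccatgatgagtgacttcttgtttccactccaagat

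The other mitochondrial members that rose were *Aars2* and *Yars2*, for alanine and tyrosine. *Aars2* spanned 205 to 366 (median 291) in ISP8 cells against 110 to 267 (median 202) in DN3 cells, a change of 0.62 (limma adjusted p = 0.00747) with a positive sign in 7 of 8 mice. *Yars2* spanned 348 to 741 (median 457) in ISP8 cells against 257 to 536 (median 358) in DN3 cells, a change of 0.45 (adjusted p = 0.0106). Its differences were -0.22 to 0.22 in *PKBα*-/- mice and 0.25 to 1.49 in wild-type mice, and its second probe set read 0.16 without passing. Without replicate 1 *Aars2* did not pass, with 0.43, and without replicate 2 *Yars2* did not, with 0.41.

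*Cars2* and *Hars2* were lower in every ISP8 sample than in any DN3 sample. That makes 2 of 16 mitochondrial members, against 8.85% of all probe sets tested. *Cars2*, the mitochondrial cysteinyl enzyme, read 451, 385, 409 and 414 in *PKBα*-/- ISP8 cells and 396, 368, 346 and 378 in wild-type ISP8 cells, against 493, 659, 756 and 788 in *PKBα*-/- DN3 cells and 651, 908, 668 and 787 in wild-type DN3 cells. The change was -0.84 (standard error 0.11, limma adjusted p = 1.74e-05). A second probe set of *Cars2* fell by 0.67 and passed, and the third, with values of 3.83 to 41.5, read 0.18. *Hars2*, the mitochondrial histidyl enzyme, read 610, 600, 594 and 579 in *PKBα*-/- ISP8 cells and 491, 490, 525 and 619 in wild-type ISP8 cells, against 808, 843, 791 and 898 in *PKBα*-/- DN3 cells and 834, 799, 849 and 819 in wild-type DN3 cells. The change was -0.56 (standard error 0.087, adjusted p = 7.1e-05), and its second probe set fell by 0.51 and passed. *Hars* and *Hars2* are neighbours in the genome, and both probe sets of each passed, those of *Hars* higher and those of *Hars2* lower in ISP8 cells.

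*Nars2*, *Wars2*, *Tars2* and *Ears2*, for asparagine, tryptophan, threonine and glutamate, also fell in ISP8 cells. *Nars2* spanned 479 to 717 (median 546) in ISP8 cells against 675 to 955 (median 740) in DN3 cells, a change of -0.42 (limma adjusted p = 0.00118) in the same direction in 8 of 8 mice. *Wars2* spanned 145 to 271 (median 204) in ISP8 cells against 225 to 388 (median 289) in DN3 cells, a change of -0.46 (adjusted p = 0.0233), and *Tars2* spanned 1215 to 1591 (median 1406) in ISP8 cells against 1244 to 1887 (median 1646) in DN3 cells, a change of -0.23 (adjusted p = 0.0317). Both were lower in 8 of 8 mice. *Ears2* changed by -0.56 (adjusted p = 0.0438) and was lower in 6 of 8 mice, the exceptions being *PKBα*-/- pairs 1 and 2. The calls of *Wars2*, *Tars2* and *Ears2* depended on the pairs included and on the processing. *Wars2* did not pass without replicate 1, 2 or 4 in turn (changes of -0.34, -0.47 and -0.48), *Tars2* without replicate 1, 2 or 3 (-0.25, -0.20 and -0.20) and *Ears2* without replicate 3 or 4 (-0.50 and -0.32). After quantile normalization none of the 3 passed, with changes of -0.21 (*Wars2*, adjusted p = 0.312), -0.19 (*Tars2*, 0.0722) and -0.30 (*Ears2*, 0.268). With 4 littermate pairs in place of 8 mice *Tars2* (adjusted p = 0.0576) and *Ears2* (0.0805) did not pass, nor did *Tars2* without the block for mouse (0.0573) or *Ears2* with no filter on low values (0.0526). Members that did not pass were *Lars2* (0.23), *Iars2* (0.02), *Mars2* (0.64), *Pars2* (-0.08), *Rars2* (-0.09), *Fars2* (-0.10) and *Vars2* (-0.33, lower in 8 of 8 mice, adjusted p = 0.0753). *Mars2* ranged from 34.5 to 85.0 in ISP8 cells and from 7.18 to 83.2 in DN3 cells, and its 95% interval ran from -0.21 to 1.48. The DN3 value of 7.18 belonged to wild-type pair 1, whose difference was 3.45, and without replicate 1 the change was 0.14.

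For 17 combinations of a cytosolic and a mitochondrial enzyme of the same amino acid, the change of the cytosolic member exceeded that of the mitochondrial one on average in 12. The difference was positive in 8 of 8 mice for cysteine (mean 1.42 ± 0.27, SD, n = 8 mice), histidine (0.93 ± 0.20), threonine (0.57 ± 0.17), arginine (0.53 ± 0.25) and tryptophan (0.51 ± 0.46). Serine ran the other way in 8 of 8 mice (-1.58 ± 0.81). Leucine was negative in 7 of 8 mice (-0.38 ± 0.29), with *Lars* below and *Lars2* above 0. Alanine, methionine and tyrosine had means below 0 and both signs among the mice. The combinations for glutamate, phenylalanine, isoleucine, asparagine and valine had positive means and were positive in 7 of 8 mice. The combination for proline also had a positive mean and was positive in 6 of 8 mice. Combinations that share *Eprs* or *Fars2* are not independent of each other, and no test was made of these differences.

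**Figure D3:**
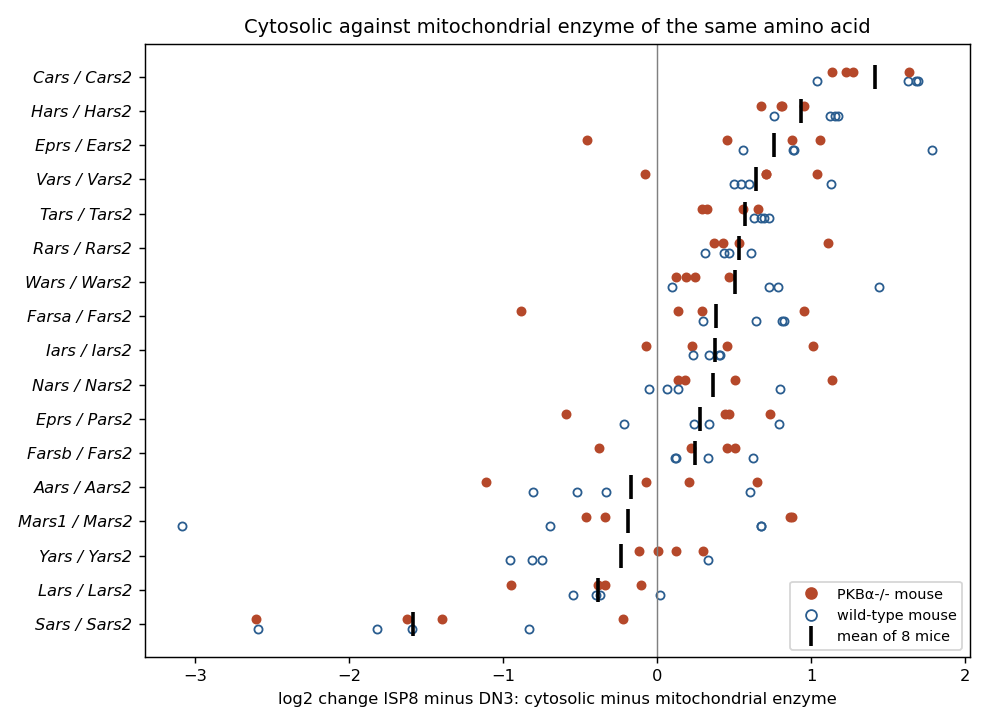
Log2 change between ISP8 and DN3 cells of the cytosolic enzyme minus that of the mitochondrial enzyme, for 17 combinations in 8 mice (filled points *PKBα*-/-, open points wild type, bars the mean). In 5 combinations all 8 mice lie above 0, and for *Sars* and *Sars2* all 8 lie below.

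Several members have probe sets that read differently. *Gars*, *Rars*, *Kars*, *Tars*, *Mars1*, *Vars*, *Sars2* and *Aars2*, which passed, have only 1 probe set, so that none could be set against it. *Qars*, the glutaminyl-tRNA synthetase, has 4, of which the one used and a pair of others read -0.26, -0.15 and -0.48 without passing. The fourth, which like the one used carries the suffix of probe sets that may bind several transcripts, read 2136, 3005, 3504 and 1671 in *PKBα*-/- ISP8 cells and 3325, 3999, 4535 and 2460 in wild-type ISP8 cells, against 434, 1262, 2176 and 621 in *PKBα*-/- DN3 cells and 665, 399, 2677 and 506 in wild-type DN3 cells. Its change was 1.79 (limma adjusted p = 3.13e-06) in 8 of 8 mice, and both DN3 samples of the 2-week pair were again the highest DN3 samples. *Nars* had a second probe set that was higher by 0.26 and passed, *Eprs* one that was higher by 0.21 and passed, *Farsb* one that was higher by 0.15 and passed, and *Farsa* one that fell by 0.59 and passed. For *Aars*, *Sars*, *Hars*, *Hars2*, *Tars2* and *Wars2* both tested probe sets passed in the same direction. For *Cars* (0.42), *Iars* (0.16) and *Nars2* (-0.20) the second probe set had the sign of the one used but did not pass. When all probe sets of a gene were averaged, *Cars*, *Cars2* (-0.45), *Nars2*, *Yars2* and *Ears2* did not pass.

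RefSeq promoters (GRCm38.p6) were matched by gene ID for 26 of the 35 members, and those of *Cars*, *Hars*, *Hars2*, *Lars*, *Nars*, *Pars2*, *Rars*, *Vars* and *Wars* were not analysed here. The ATF4 and C/EBP composite element, TGATGNAAN on either strand, was found in 5 of 12 cytosolic and 0 of 14 mitochondrial genes, and in 3.9% of 32544 mouse promoters of 300 bases. For each motif, members were counted by gene, with a match in any listed promoter, while the share over all counts single promoters. The cytosolic ones are *Aars*, with 2 matches, *Gars*, *Iars*, *Tars* and *Yars*. Of these, 4 were higher in ISP8 cells, of 7 higher cytosolic members with a promoter matched, and *Yars* was not called, of 5 such members. The windows of 49 bases around the matches outside *Gars* are shown on the strand of the gene (GRCm38.p6, minus strand for *Tars* and plus strand for the others), with the match in capitals.
Aars (chr8:111033709-111033757): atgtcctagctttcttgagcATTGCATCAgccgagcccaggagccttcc
Aars (chr8:111033830-111033878): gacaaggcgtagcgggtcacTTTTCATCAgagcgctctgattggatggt
Iars (chr13:49682116-49682164): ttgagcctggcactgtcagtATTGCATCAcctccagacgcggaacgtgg
Tars (chr15:11399646-11399694): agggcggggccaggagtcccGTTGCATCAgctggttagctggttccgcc
Yars (chr4:129189886-129189934): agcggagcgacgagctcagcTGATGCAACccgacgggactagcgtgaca
The E-box CACGTG, bound by MYC with MAX among others, was found in 4 of 12 cytosolic genes (*Aars*, *Iars*, *Tars* and *Farsb*) and in 1 of 14 mitochondrial ones (*Ears2*), against 7.17% of all promoters. The core GCGCATGC of sites of NRF1, a factor of genes for mitochondrial proteins, was found in 0 of 12 cytosolic and 3 of 14 mitochondrial genes (*Wars2*, *Rars2* and *Vars2*), against 2.73% of all promoters. Both strands were searched, and a match is a sequence description, not evidence of binding.

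Genes of related processes were set beside the synthetases. Over all genes, with 1 probe set per gene, 18.3% were higher and 24.1% lower, and several of the counts below lie near these shares. Among 23 genes of the ATF4 amino acid response, 7 were higher and 5 lower in ISP8 cells with a median of 0.02. *Mthfd2* and *Shmt2*, enzymes of one-carbon metabolism in mitochondria, were higher by 1.28 and 0.68 (limma adjusted p = 7.68e-09 and 2.26e-07), while *Eif4ebp1*, an inhibitor of translation initiation, changed by -0.99 and was lower in 8 of 8 mice. *Asns*, asparagine synthetase, read -0.79 (limma adjusted p = 0.0368). In single mice *Atf4* itself differed by 0.10 to 0.47, *Psat1* by 0.24 to 0.92 and *Psph* by 0.43 to 1.55. *Phgdh* and *Ddit4*, of the same list, differed by -0.40 to -0.07 and by -1.38 to -0.13. The part of ATF4 in the change of the synthetases was not tested. Of 13 amino acid transporters 5 were higher and 2 lower, among them *Slc7a5*, the light chain of the large neutral amino acid transporter (1.02), and *Slc38a9* and *Slc38a1* (-1.42 and -0.30). Of 8 cytosolic elongation factor genes 3 were higher and 1 lower, namely *Eef1d* (0.25), *Eif5a* (0.21) and *Eef1a1* (0.12) as higher, and as lower *Eef2k*, the kinase that inhibits elongation (-1.31). Of 13 mitochondrial translation factors 3 were higher and 3 lower, led by *Gfm1* (0.60), *Guf1* (-0.71) and *Tsfm* (0.84). Of 4 genes for editing of misacylated tRNA, *Aarsd1*, which clears mischarged tRNA for alanine, was higher by 0.75 and the others did not pass (*Dtd2* 0.85, *Prorsd1* -0.17). Of 27 genes of tRNA modification and processing 7 were higher and 4 lower, led by *Rpp30* of RNase P (0.87), *Trmt1* (-0.47) and *Pus7* (-0.40).

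Of 12 growth regulators 2 were higher and 6 lower, against 18.3% and 24.1% of all genes. They were led by *Mycn* (-3.11), *Eif4e* (0.79) and *Sesn1* (-0.46), and *Myc* changed by -0.51 and was lower in 8 of 8 mice. All 11 cell cycle genes tested were higher in ISP8 cells, with a median of 1.18, led by *Rrm2* (1.60), *Top2a* (1.77) and *Ccna2* (1.98). Their summed value was 143636 to 158650 in ISP8 cells against 56634 to 78987 in DN3 cells. Their part in the change of the synthetases was not tested.

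**Figure D4:**
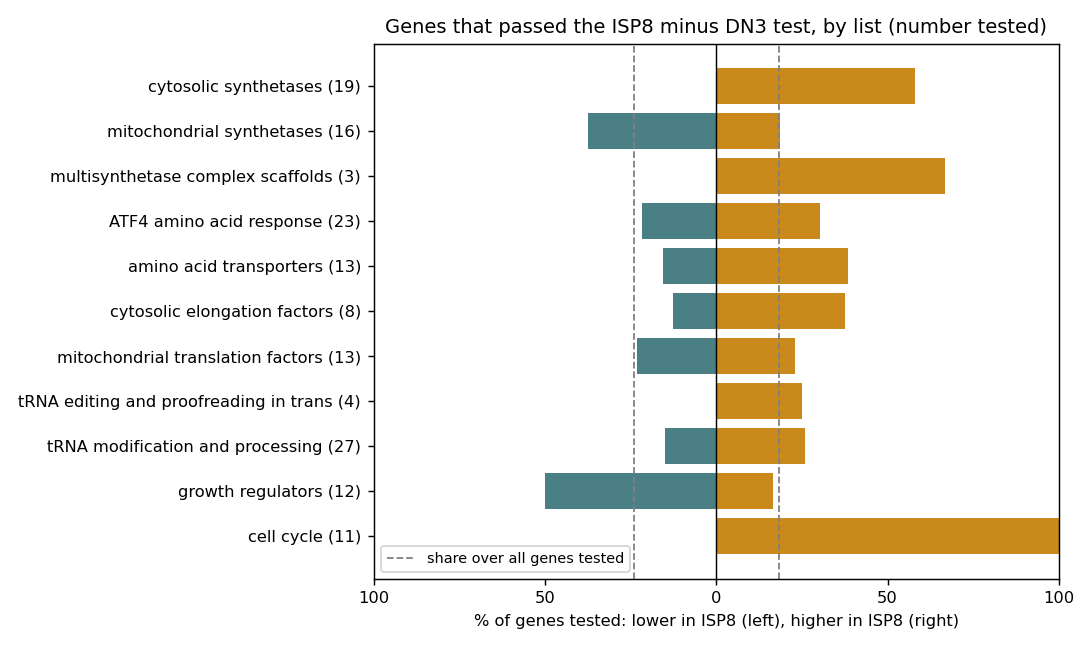
Share of the genes tested in each list that passed as higher (right) or lower (left) in ISP8 against DN3 cells, with the number tested in brackets and the shares over all genes as dashed lines (18.3% higher, 24.1% lower). Of the cytosolic synthetases 11 of 19 were higher, of the mitochondrial synthetases 3 of 16 were higher and 6 lower, and of the cell cycle genes 11 of 11 were higher.

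Markers of stage and of other cells also differed between the subsets. Of 9 DN3-stage genes 8 were lower in ISP8 cells (median -2.66), and of 5 ISP8-stage genes 3 were higher and 1 lower. The shares over all genes were 18.3% higher and 24.1% lower. Of 5 genes listed as mature T cell markers 2 were higher, *Cd6* (1.57) and *Cd5* (1.16), with a summed value of 1720 to 2474 in ISP8 cells against 759 to 987 in DN3 cells. *Ccr7*, *Klf2* and *S1pr1*, of the same list, read 0.27 to 0.58 without passing and had both signs among the mice. The summed value of 6 myeloid and dendritic cell markers was 189 to 502 in ISP8 cells against 576 to 1166 in DN3 cells, with 0 higher and 2 lower of 5 tested (*Lyz2* -2.85, *Csf1r* -1.23). Of these 5, 1 read above 0 without passing, *Itgax* at 0.95, with both signs among the mice. The summed value of 4 B cell markers was 270 to 535 in ISP8 cells against 1093 to 1314 in DN3 cells, with 1 higher and 1 lower (*Ms4a1* 1.88, *Cd79b* -2.16). The B cell list had a median of 1.01, and *Cd79b* alone read 183 to 353 in ISP8 cells against 992 to 1270 in DN3 cells. The summed value of 6 epithelial and stromal markers was 158 to 311 in ISP8 cells against 437 to 1069 in DN3 cells, with *Epcam* lower (-2.97). Of the 5 tested, 3 read above 0 without passing, at 0.57 to 1.3, among them *Krt8* (0.97), and the median was 0.57, while *Epcam* alone read 33.3 to 132 in ISP8 cells against 332 to 952 in DN3 cells. The summed value of 3 erythroid markers was 47.8 to 157 in ISP8 cells against 53.7 to 104 in DN3 cells, with none of 2 tested passing. For the actin controls, 3′ minus 5′ signal reports on RNA quality, and it was -0.44 ± 0.37 in ISP8 minus DN3 cells (SD, n = 8 mice, log2), while for *Gapdh* it was 0.03 ± 0.47. The part of these differences in the change of the synthetases was not tested.

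Within *PKBα*-/- mice, 8 cytosolic members were higher and 0 lower in ISP8 cells, against 6 and 0 within wild-type mice, with medians of 0.27 and 0.36 (4 without replicate 1 or 4 in *PKBα*-/- mice, 10 without replicate 2 in wild-type mice). *Gars*, *Hars*, *Rars* and *Tars* passed in both genotypes, *Aars*, *Cars*, *Iars* and *Mars1* in *PKBα*-/- mice and *Kars* and *Sars* in wild-type mice. Of the mitochondrial members 1 was higher and 3 lower in *PKBα*-/- mice, against 3 and 4 in wild-type mice, with *Sars2*, *Cars2* and *Hars2* passing in both (2 lower in wild-type mice without replicate 1, 2 or 4). Over all probe sets, 10.4% were higher and 14.2% lower in *PKBα*-/- mice, against 11.7% and 17% in wild-type mice. The test of the difference between the genotypes passed for none of the 35 members (smallest limma adjusted p = 0.961), as for 0% of the 36835 probe sets in the higher and 0% in the lower direction, with 1 member at an unadjusted p under 0.05, against 4.75% of all probe sets. That member was *Yars2*, whose probe set used carries the suffix of probe sets that may bind several transcripts. Its difference was -0.84 (standard error 0.26, limma unadjusted p = 0.00499), followed by *Nars2* (-0.36), *Sars* (-0.25) and *Wars2* (0.51). The 95% intervals of this difference stayed within 0.5 on either side of 0 for 11 of 19 cytosolic and 4 of 16 mitochondrial members.

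No synthetase passed the test between *PKBα*-/- and wild-type cells in either subset. In ISP8 cells the median log2 change of *PKBα*-/- against wild-type cells was -0.03 for the cytosolic and 0.07 for the mitochondrial members, and in DN3 cells 0.01 and 0.07 (limma with the littermate pair as a block). Of all probe sets, 0.00294% were higher and 0.0118% lower in *PKBα*-/- ISP8 cells (34016 tested), and 0.0177% were higher and 0.0206% lower in *PKBα*-/- DN3 cells (33962 tested). The smallest adjusted p of a member was 0.756 in ISP8 and 0.972 in DN3 cells. At an unadjusted p under 0.05 there were 2 of 35 members in ISP8 and 0 of 35 in DN3 cells, against 6.08% and 4.83% of all probe sets. A selection after the methods, a paired test with 1.5-fold in at least 3 of 4 pairs, took 0 members in either subset, and 1.53% of all probe sets in ISP8 and 1.35% in DN3 cells. The detection p-value that the methods also describe was not applied in it. The 95% interval lay within 0.5 on either side of 0 for 18 of 19 cytosolic members in each subset, and for 9 of 16 mitochondrial members in ISP8 and 10 of 16 in DN3 cells.

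**Figure D5:**
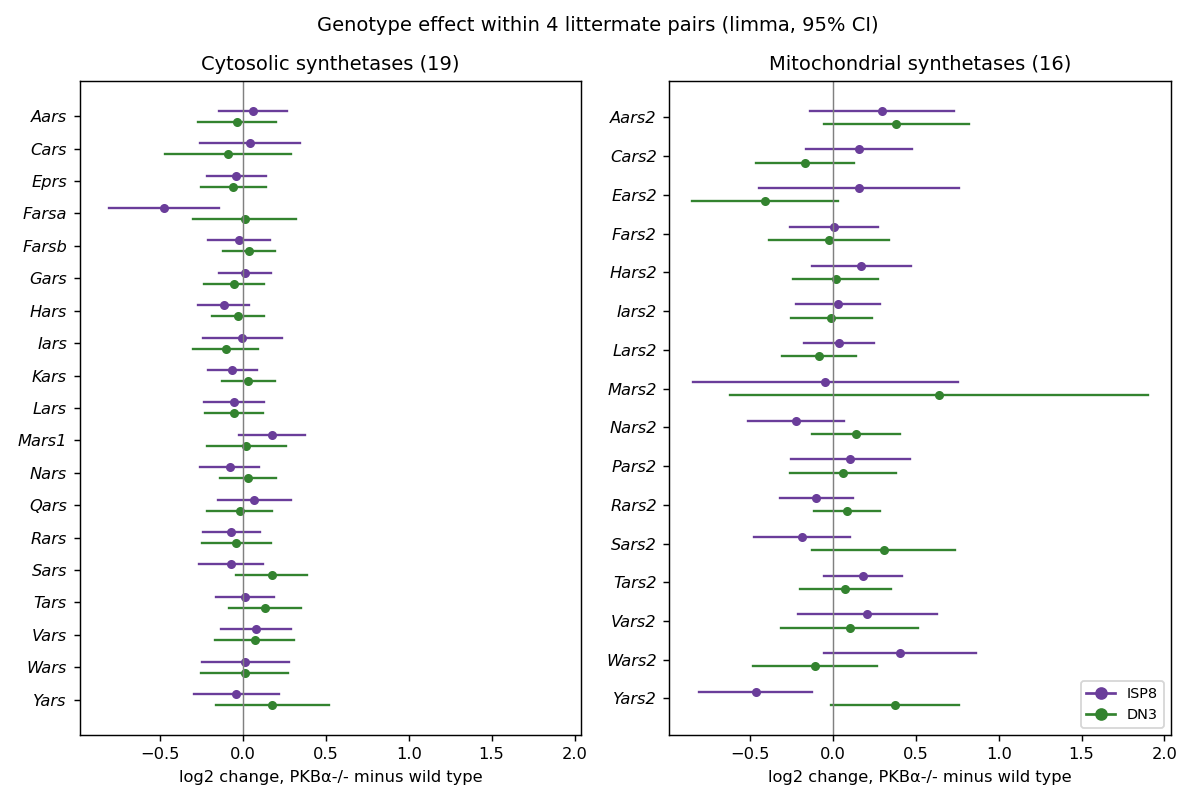
Log2 change of *PKBα*-/- against wild-type cells for 19 cytosolic (left) and 16 mitochondrial synthetases (right), in ISP8 (purple) and DN3 cells (green), with 95% confidence intervals from limma over 4 littermate pairs. No member passed, and the widest interval, of *Mars2* in DN3 cells, reached 1.90.

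In ISP8 cells *Farsa*, the catalytic subunit of the phenylalanyl enzyme, read 304, 392, 717 and 453 in *PKBα*-/- mice against 528, 611, 741 and 611 in wild-type mice. It was lower in 4 of 4 pairs (log2 change -0.48, 95% interval -0.81 to -0.14, limma adjusted p = 0.756), by 0.05 in the 2-week pair and by more in the others, and its other 3 probe sets read 0.27, -0.18 and -0.01. *Yars2* read 460, 434, 454 and 358 in *PKBα*-/- ISP8 cells against 724, 633, 741 and 348 in wild-type ISP8 cells (log2 change -0.47, adjusted p = 0.778). In DN3 cells it read 536, 373, 434 and 342 in *PKBα*-/- mice against 257, 336, 417 and 292 in wild-type mice (0.37, adjusted p = 0.972), higher in 4 of 4 pairs with most of the difference in pair 1. The next members in ISP8 cells were *Wars2* (0.40) and *Mars1* (0.17), and in DN3 cells *Ears2* (-0.41), *Aars2* (0.38) and *Sars* (0.17). The fourth *Qars* probe set, with the change of 1.79 between the subsets, read -0.50 in *PKBα*-/- ISP8 cells, lower in 4 of 4 pairs (adjusted p = 0.197), and the other 3 read 0.02 to 0.14. The scaffold genes read -0.03 (*Aimp1*), -0.14 (*Aimp2*) and -0.10 (*Eef1e1*) in ISP8 cells and 0.08, 0.11 and 0.15 in DN3 cells, and none passed. In the lists of genes for the amino acid response, transporters, translation factors, tRNA modification, growth and cell cycle, 0 genes passed in either subset.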

How the data were processed

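Thymocyte RNA of 16 sorted samples was hybridised to Affymetrix mouse genome 430 2.0 arrays after 2 cycles of 3′ labelling. The deposited intensity values are GC-RMA estimates on a linear scale that the authors made with Refiner 3.1, with 1 value for each of 45101 probe sets. Of these, 34958 had a single gene symbol, 932 several and 9211 none, from an annotation table of the platform. The values were taken as log2 with no constant and tested with limma 3.58.1 in R 4.3.3 (trended moderation, Benjamini-Hochberg adjustment over all probe sets tested, threshold 0.05). *PKBα*-/- and wild-type cells were compared within each subset with the littermate pair as a block, and ISP8 and DN3 cells in 1 fit of all arrays with the mouse as a block. Probe sets were tested where either littermate exceeded 20, in 3 or more of the 4 pairs. Deviations from group means correlated at 0.316 to 0.384 within littermate pairs in DN3 cells and at 0.0706 to 0.178 in ISP8 cells, against -0.228 to 0.0714 and -0.171 to 0.054 between pairs. The pairs are given by the labels. No columns held identical values.

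For genes with several probe sets, the one with the highest mean log2 value was used. The text names all members, and of each other list up to 3 genes with the smallest p of ISP8 minus DN3. *Asns*, *Atf4*, *Psat1*, *Psph*, *Phgdh*, *Ddit4*, *Eef1a1* and *Myc* fall outside this rule and were chosen after their values were seen. All mature T cell genes tested are named, beyond the rule. *Itgax* and *Krt8* are named for a sign unlike that of the genes of their lists that passed. Members and lists were chosen with earlier results of these data known. Alternatives were an added constant of 20, a filter at 100 or none, quantile normalization, the mean of all probe sets, robust moderation, no block, pairs in place of mice, and leaving out each pair. The fits were tested on simulated data. Sequences and gene neighbours were taken from RefSeq (GRCm38.p6), and figures were drawn with matplotlib 3.10.9.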

Additional observations from a re-analysis of the deposited data

Results flagged for a closer look

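Within groups of 4 mice, 140 sets of member values were checked for a single sample far from the others by Dixon's ratio of gap to range at its 95% limit, and 3 were found, where chance alone gives about 7. *Sars2* in wild-type DN3 cells had a ratio of 0.946, since pair 3 read 643 and the others 193 to 206. *Rars2* in wild-type DN3 cells had a ratio of 0.9246, since pair 2 read 1766 and the others 2012 to 2034. *Yars* in *PKBα*-/- ISP8 cells had a ratio of 0.8683, since pair 2 read 718 and the others 830 to 849.

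*Nars2* moved in opposite directions between the genotypes in the 2 subsets. In ISP8 cells *PKBα*-/- minus wild type was -0.44, -0.13, -0.20 and -0.13 in pairs 1 to 4, and in DN3 cells it was 0.12, 0.38, 0.03 and 0.02. The difference between the subsets was -0.3633 (limma, unadjusted p = 0.0582, adjusted p = 0.961), so it did not pass. All members were searched for such a pattern, and how many chance alone would give was not worked out.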

How the results depend on the processing

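Of the 11 cytosolic members that were higher in ISP8 cells, 8 passed under all 12 alternatives (*Gars*, *Hars*, *Iars*, *Kars*, *Mars1*, *Rars*, *Sars* and *Tars*), as did *Sars2* among the higher and *Hars2* among the lower mitochondrial members. Over all mice, cytosolic members lower in ISP8 cells numbered 0, against 1 with the filter at 100, 2 after quantile normalization, 1 with the mean of all probe sets and 0 to 1 when a pair was left out. Mitochondrial members lower numbered 6, against 3 after quantile normalization and 3 with the mean of all probe sets. In *PKBα*-/- mice, cytosolic members higher numbered 8, against 4 to 6 when a pair was left out, mitochondrial members higher 1, against 2 after quantile normalization, and mitochondrial members lower 3, against 1 with the mean of all probe sets. In wild-type mice, cytosolic members higher numbered 6, against 6 to 10 when a pair was left out, cytosolic members lower 0, against 1 after quantile normalization, and mitochondrial members lower 4, against 2 after quantile normalization and 2 to 3 when a pair was left out. Without the block for mouse or littermate pair, 11 cytosolic members were higher and 0 lower, and 4 mitochondrial members were higher and 5 lower, over all mice. Members that did not pass changed sign in the ISP8 minus DN3 comparison as follows. After quantile normalization *Fars2* read 0.025 and *Pars2* 0.14. With the mean of all probe sets *Farsa* read -0.13, *Nars* 0.10 and *Qars* 0.23. When a pair was left out *Iars2* ranged from -0.0972 to 0.0644, *Pars2* from -0.2877 to 0.032, and *Nars* from -0.2271 to 0.0347 (positive without replicate 1 and without replicate 4). Changes of members that passed moved by over 1.5 times after quantile normalization for *Hars* (0.20), *Kars* (0.18) and *Nars2* (-0.28), which still passed. The difference of *Nars2* between the genotypes read 0.10 with the mean of all probe sets. Quantile normalization moved the median of all probe sets to 0.04, against -0.05, and the mitochondrial median to 0.01 in *PKBα*-/- mice and 0.02 in wild-type mice. No member passed between *PKBα*-/- and wild-type cells under any alternative. The causes of these changes were not tested. The number of mice limits the precision.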
